A study of Mus musculus with 4 samples.

Results

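Surface colonocytes are the mature absorptive cells at the top of the colonic crypt, and the genes that mark their maturation were followed here on all 4 arrays of the series. The markers were 9 genes, *Ceacam1*, *Ceacam20*, *Guca2a*, *Guca2b*, *Plac8*, *Emp1*, *Mall*, *Tmigd1* and *Vil1*, of 27376 genes named on the array. They were found by their gene name among the gene probes of the array files, which gave 12 probes, 3 for *Ceacam1*, 2 for *Vil1* and 1 for each other gene.

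Colonocytes arise from dividing cells in the lower crypt, where Wnt signals amplified by R-spondins keep stem cells and their daughters in an immature state. As cells move up and leave this zone they stop dividing, build a brush border of microvilli and switch on genes of absorption, secretion of signalling peptides and cell contact. R-spondin 3, made by myofibroblasts below the crypt, is one of the R-spondins of the colon, and Axin2 is a target gene of Wnt signals that marks cells receiving them.

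Each dual-colour array compared a pair of RNA samples from C57BL/6 mice, one labelled with Cy3 and the other with Cy5. In the first experiment, distal colon RNA of 2 *Rspo3* KO mice was set against that of 2 control mice, with 1 mouse of each genotype per array, giving 2 biological pairs with reversed dyes. The *Rspo3* KO mice were Myh11CreErt2/Rspo3 fl/fl and the controls Myh11CreErt2/Rspo3 +/+ littermates, so both carried the Cre, which acts in *Myh11*-expressing myofibroblasts and smooth muscle, and both received tamoxifen 2 weeks earlier. In the second, Axin2+ (tdTomato-positive) and Axin2- (tdTomato-negative) epithelial cells were sorted from the colon of Axin2CreErt2/Rosa26-tdTomato mice 24 h after tamoxifen, pooled over 3 mice, and hybridised against each other on 2 arrays with reversed dyes. The dye swap repeated the same RNA, so that the Axin2 comparison counts as 1 replicate and carries no test. All mice were male and 6 to 8 weeks old, and tamoxifen was given intraperitoneally at 4 mg per 25 g of body weight in 200 µl of corn oil, once or on each of 3 days in a row. The sources used here do not give which control was the littermate of which KO mouse.

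Values are log2 ratios, *Rspo3* KO over control or Axin2+ over Axin2-, and levels are log2 intensities per channel, normalised within and then between arrays. A level depends on the probe, so levels are compared for the same probe only. Summed intensities of a gene list can rest on different genes and probes in sorted cells and in colon. They are therefore not compared between the 2 experiments. Well above background means that the extraction software called the spot brighter than its surroundings in that channel. Between 53.1% and 60.3% of gene spots passed this in a channel, and all 12 marker probes passed it in all 8 channels, with none saturated. Keratins and other pan-epithelial markers were well above background in both sorted fractions for 8 of 8 genes. Their levels were not equal: *Krt8* (-0.83), *Krt19* (-0.67) and *Cldn4* (-0.67) were lower past 1.5-fold in Axin2+ cells, and 5 did not pass. The median of these genes was -0.25, with sums between 209516 and 228211 in Axin2+ and between 274595 and 274631 in Axin2- cells. Of 8 fibroblast markers, 3 were measured in the sorted cells. Their summed normalised intensities were between 436 and 498 in Axin2+ and between 700 and 764 in Axin2- cells. All 8 were measured in the distal colon, with sums between 72628 and 94499. Of 12 immune markers, 10 were measured in the sorted cells, with sums between 1750 and 1828 in Axin2+ and between 2292 and 2497 in Axin2- cells. Of these genes, 7 were well above background on both arrays in Axin2+ and 8 in Axin2- cells. Of 8 smooth muscle markers, 3 were measured in the sorted cells, *Acta2*, *Actg2* and *Tagln*, with sums between 11447 and 14164 in Axin2+ and between 10051 and 10126 in Axin2- cells, and 6 in the distal colon, with sums between 68423 and 81322. *Acta2* was the brightest of the 3 there (mean log2 intensity 12.40), while *Myh11*, *Des* and *Synm* were measured in the colon but not in the sorted cells. The sorted fractions thus also held signal at some fibroblast, immune and smooth muscle genes, and its part in the marker values was not tested. Fewer colonocytes and less RNA of a gene per colonocyte cannot be told apart in either experiment. *Rspo3* itself could not check the KO labels: 1 of its 2 probes was below background in every channel, and the other exceeded it only in the second pair, where both channels did and the log2 ratio was 0.17. Whether these probes lie in the deleted part of the gene is not given in the sources used here.

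All 9 surface genes were lower in Axin2+ than in Axin2- cells on both arrays, and 6 of them passed 1.5-fold. Over all genes measured in this experiment, 41.7% were lower on both arrays, 6.91% were lower and 7.87% higher by more than 1.5-fold with both arrays pointing the same way, while the 9 markers had a median log2 ratio of -1.68 against a median of -0.0048 for 15896 genes. The markers nevertheless spanned a wide range, from 8.13-fold lower for *Tmigd1* to 1.12-fold lower for *Vil1*.

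**Figure D1:**
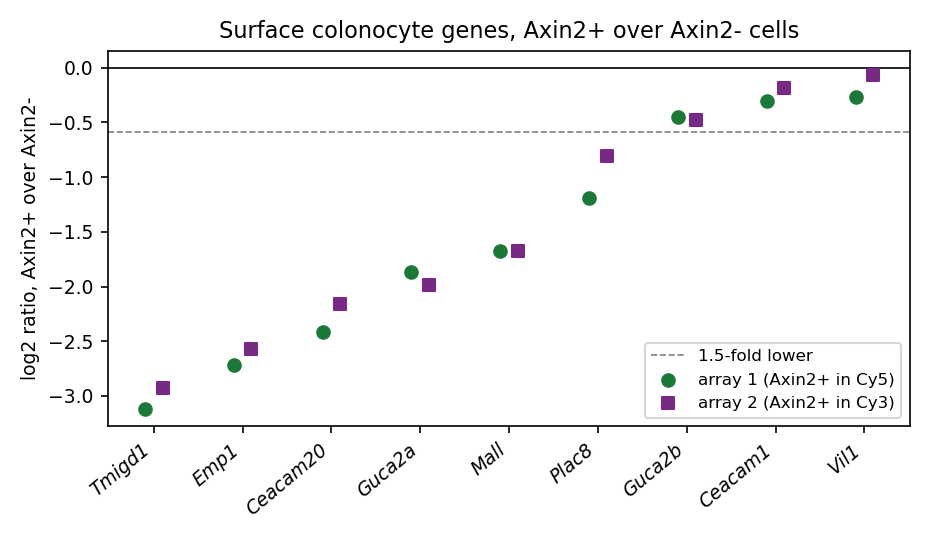
Log2 ratio of Axin2+ over Axin2- cells (vertical axis) for the 9 surface genes, with a circle for array 1 and a square for array 2 of the dye swap, and a dashed line at 1.5-fold lower. All 18 points lie below 0, and *Guca2b*, *Ceacam1* and *Vil1* lie above the dashed line.

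*Tmigd1*, an adhesion molecule of the immunoglobulin superfamily found at the brush border, showed the lowest ratio among the markers. Its level was 7.81 and 8.28 in Axin2+ cells and 10.93 and 11.21 in Axin2- cells on the 2 arrays. The fractions were thus far apart on both arrays, with log2 ratios of -3.12 and -2.93, which ranked 7 from the lowest of 15896 genes. *Ceacam20*, a microvillar member of the CEACAM adhesion family, had levels of 7.92 and 8.25 in Axin2+ cells and 10.33 and 10.40 in Axin2- cells. Its log2 ratios were -2.42 and -2.16, or 4.88-fold lower on average, and its rank was 48. In contrast, *Ceacam1*, which mediates cell contact through the same family of immunoglobulin domains, was nearly as high in Axin2+ cells, at 15.59 and 15.72, as in Axin2- cells, at 15.89 and 15.90. Its log2 ratios of -0.30 and -0.18 did not pass 1.5-fold.

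*Ceacam1* was measured by 3 probes, which are shown because they cover different parts of the gene, with the first 30 of their 60 bases. They lie on the minus strand of mm9 at chr7:26258827-26258886, chr7:26257016-26257075 and chr7:26246761-26246820, in that order.
A_51_P183446: tatacctgcttcgtcaataactctgtcact
A_52_P159232: ttcctccaagtcaccaacaccacagtcaaa
A_52_P240706: tgctggattatttaattttgcccggcttaa
The 3 probes gave mean log2 ratios of -0.35, -0.34 and -0.24 in the Axin2 comparison. They thus pointed the same way, and none passed 1.5-fold. The near-identical paralog *Ceacam2*, whose transcripts can share probe targets with *Ceacam1*, had log2 ratios of -0.37 and -0.66.

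*Emp1*, a tetraspan membrane protein of the peripheral myelin protein family, was 6.24-fold lower in Axin2+ cells. Its levels were 9.09 and 9.32 in Axin2+ cells against 11.80 and 11.89 in Axin2- cells, with log2 ratios of -2.71 and -2.57 and rank 22 from the lowest. *Mall*, a tetraspan protein of the MAL family found in lipid rafts, gave almost identical log2 ratios of -1.68 and -1.68 on the 2 arrays. Its levels were 11.05 and 11.07 in Axin2+ cells and 12.73 and 12.75 in Axin2- cells. *Plac8*, a small cysteine-rich protein, was lower by less and with the widest gap between the arrays among the markers. Its levels were 14.42 and 14.55 in Axin2+ cells and 15.62 and 15.36 in Axin2- cells, with log2 ratios of -1.19 and -0.80, or 1.996-fold on average.

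Guanylin (*Guca2a*) and uroguanylin (*Guca2b*) are peptide hormones secreted into the lumen, where they bind the guanylate cyclase *Gucy2c* and adjust salt and water transport. Their genes lie 17135 bases apart on chromosome 4 of GRCm38.p6 and point toward each other, *Guca2a* at chr4:119637732-119639465 on the plus strand and *Guca2b* at chr4:119656601-119658945 on the minus strand. The neighbours differed in the Axin2 comparison. *Guca2a* had levels of 15.08 and 14.76 in Axin2+ cells and 16.96 and 16.74 in Axin2- cells, which is 3.801-fold lower on average, with log2 ratios of -1.87 and -1.98. *Guca2b* had levels of 11.71 and 11.63 in Axin2+ cells and 12.16 and 12.11 in Axin2- cells, with log2 ratios of -0.45 and -0.48, which did not pass 1.5-fold. On each array the log2 ratio of *Guca2a* was lower than that of *Guca2b*, with a difference of -1.42 on the first and -1.504 on the second.

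*Vil1* (villin), the actin-bundling protein of the microvillus core, differed least between the fractions. Its levels were 14.32 and 14.44 in Axin2+ cells and 14.59 and 14.50 in Axin2- cells, with log2 ratios of -0.26 and -0.06. Its 2 probes are shown because they are not independent: they share 40 of 60 bases, and the capitals mark the shared bases within the first 30 of each (mm9 chr1:74481962-74482021 and chr1:74481982-74482041, plus strand).
A_51_P381409: caccaggaacatgggtttgcTACGTGAAGT
A_52_P260555: TACGTGAAGTccaatcagaagccaataggt
The second probe gave log2 ratios of -0.19 and -0.13, so that neither probe passed 1.5-fold.

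Beside the markers, a list of 20 other absorptive colonocyte genes was examined, of which 19 were measured. In Axin2+ cells 16 were lower past 1.5-fold on both arrays and none was higher, with a median of -2.15. The surface markers *Krt20*, *Aqp8* and *Car4*, a keratin, a water channel and a carbonic anhydrase of the mature surface, had mean log2 ratios of -2.89, -2.94 and -3.12. The paper picked *Krt20* as a marker of Axin2- cells from its microarray of these fractions, so its low ratio here is no separate evidence. Of the brightest genes of this list, the surface protein *Lypd8* (-2.46), the selenium-binding protein *Selenbp1* (-2.13) and the fatty acid-binding protein *Fabp2* (-1.13) were lower past 1.5-fold, and the membrane mucin *Muc3* (-0.18) was not. At the same 1.5-fold limit 6 of the 9 markers were lower, and *Guca2b*, *Ceacam1* and *Vil1* were not. A lower value in Axin2+ cells was not particular to genes of surface colonocytes, since genes of other lineages were lower too, as given below.

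Brush border genes, the group to which *Vil1* belongs by function, were lower past 1.5-fold for 7 of 14 measured genes, with a median of -0.50. The microvillar motor *Myo1a* had a mean log2 ratio of -0.64 and passed, while the membrane-actin linker *Ezr* (-0.32), the motor *Myo1d* (-0.25) and the actin cross-linker *Actn4* (-0.25) did not. Of the other genes of the guanylin pathway, 2 were lower and 1 was higher among 7 measured. The 2 lower genes, *Slc26a3* and *Slc9a3*, also belong to the absorptive list above and were counted there. So was *Cdhr5* of the brush border list. The receptor *Gucy2c* had log2 ratios of 0.29 and 0.11, the kinase *Prkg2* of -0.66 and -0.35, the chloride channel *Cftr* of 1.02 and 1.07, and the anion exchanger *Slc26a3* of -2.75 and -2.50. The ligand *Guca2a* and the exchanger *Slc26a3* were thus lower and the channel *Cftr* was higher, while *Gucy2c* did not pass 1.5-fold.

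In the CEACAM family and the phosphatases and kinases that act with it, 4 of 9 measured genes were lower and none was higher past 1.5-fold, with a median of -0.58. Among the tetraspan families of *Emp1* and *Mall*, listed together with the caveolins, 3 of 9 were lower and 1 was higher. The bright members *Mal2* (-0.40) and *Plp2* (0.20) did not pass, *Pmp22* (-3.33) was lower, and *Emp2* (0.78) was higher. Transcription factors of intestinal differentiation passed 1.5-fold for 2 of 14 measured genes, *Klf4* at -1.02 and *Gata6* at 0.66, and *Gata6* was named after its value was seen. *Gata6* fell short of 1.5-fold with the mean over its probes (0.25), with median centring (0.56) and without the first array (0.49).

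The fractions also differed for other epithelial lineages. Stem cell genes were higher in Axin2+ cells for 8 of 11 measured and proliferation genes for 8 of 10, whereas 7 of 8 enteroendocrine genes, 6 of 7 tuft cell genes and 5 of 10 goblet cell genes were lower, and 1 goblet gene was higher. The summed intensity of the enteroendocrine list was between 18176 and 18773 in Axin2+ and between 94506 and 97341 in Axin2- cells, with all 8 genes well above background in both fractions. For the goblet list the sums were between 173463 and 173993 and between 321709 and 342726, with all 10 genes above background, and for the tuft list between 1096 and 1278 and between 2165.6 and 2781, with 7 genes above background. The part of these lineages in the marker values was not tested.

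**Figure D2:**
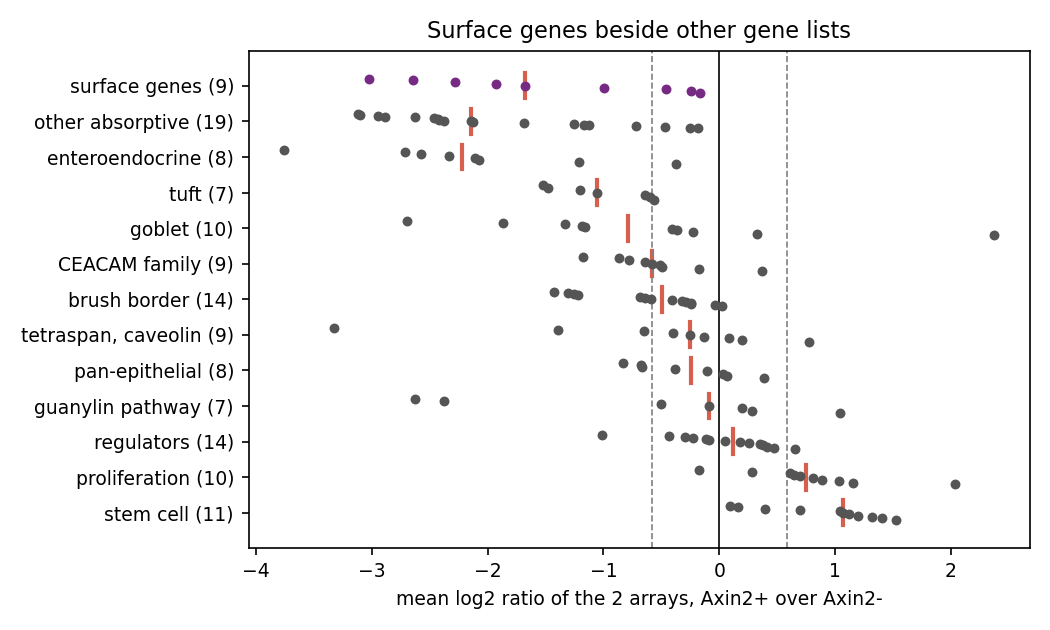
Mean log2 ratio of the 2 arrays, Axin2+ over Axin2- (horizontal axis), with a point for each measured gene of the surface genes and 12 other lists, the number measured in brackets, a bar at the median and dashed lines at 1.5-fold. The surface genes (median -1.68) and the other absorptive genes (median -2.15) lie to the left, and the stem cell genes (median 1.07) to the right.

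In *Rspo3* KO colon, none of the surface genes passed limma's test with Benjamini-Hochberg adjustment, and the 2 pairs often disagreed in direction. Of the 9 markers, 7 could be measured with the spots that carried no flag: 1 was higher past 1.5-fold in the same direction in both pairs (*Ceacam1*), 1 was lower (*Guca2b*) and 5 did not pass. Over 15386 genes, 0.26% were called at an adjusted p under 0.05, 0.143% higher and 0.117% lower, while 1.85% were higher and 2.48% lower by the fold rule. The markers' median was 0.16 and that of all genes was -0.01. Only 44.2% of all genes had the same direction in both pairs, and the correlation of the log2 ratios of the 2 pairs across genes, which are not independent replicates, was 0.03. Each pair was hybridised in 1 dye orientation only, with the KO in Cy5 in the first and in Cy3 in the second. A difference between the pairs and an effect of the dye therefore cannot be told apart.

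*Guca2b* was the marker that was lower in both *Rspo3* KO mice. Its level was 9.32 in the *Rspo3* KO and 10.29 in the control mouse of the first pair, and 9.71 and 10.18 in the second. Both KO values lay below both control values, with log2 ratios of -0.97 and -0.47 (mean -0.72 ± 0.36, SD, n = 2). By limma the unadjusted p was 0.0193 and the adjusted p was 0.763 with Benjamini-Hochberg adjustment, so the difference was not called. Unadjusted, 4.65% of all genes had a p under 0.05.

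*Tmigd1* and *Ceacam1* were higher in both pairs, in neither case past the test. *Tmigd1* had a level of 7.59 in the KO and 6.83 in the control mouse of the first pair, and 6.95 and 6.69 in the second, with log2 ratios of 0.76 and 0.26 (mean 0.51 ± 0.35, SD, n = 2; limma adjusted p = 0.9997). Both KO values lay above both control values, at the lowest levels of *Tmigd1* in the series. For *Ceacam1* the unflagged probe A_51_P183446 had levels of 8.90 and 7.76 in the first pair and 8.62 and 8.57 in the second. The first pair thus carried nearly all of the mean log2 ratio of 0.60 ± 0.77 (SD, n = 2; limma adjusted p = 0.9997), with 1.14 in it and 0.06 in the second.

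For *Emp1*, *Mall*, *Vil1* and *Ceacam20* the pairs went opposite ways. *Ceacam20* was 11.44 in the KO and 10.74 in the control mouse of the first pair, and 11.26 and 11.59 in the second, with log2 ratios of 0.70 and -0.33. The KO and control values overlapped for this gene, as for the other 3. *Emp1* had log2 ratios of -0.17 and 0.12, *Mall* of 0.25 and -0.32, and *Vil1* of -0.18 and 0.49. The 95% intervals of the mean from limma were -0.57 to 0.52 for *Emp1*, -0.61 to 0.54 for *Mall*, -0.44 to 0.75 for *Vil1* and -0.49 to 0.86 for *Ceacam20*, so a change of about 1.5-fold is inside the interval or near its edge for each of them.

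**Figure D3:**
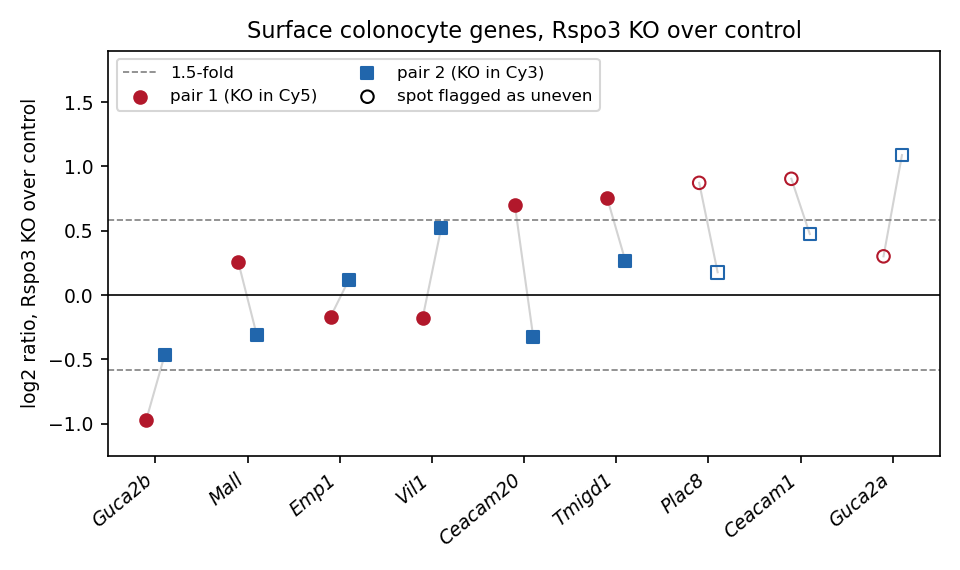
Log2 ratio of *Rspo3* KO over control (vertical axis) for the 9 surface genes, with a circle for the first pair and a square for the second, joined by a line, open where the spot was flagged as uneven, and dashed lines at 1.5-fold. *Guca2b* lies below 0 in both pairs, and *Tmigd1*, *Plac8*, *Ceacam1* and *Guca2a* lie above 0 in both.

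The brightest markers needed a different treatment in this experiment. The extraction software flags a spot whose pixels vary more than its model allows, and flagged spots were left out. On the 2 *Rspo3* KO arrays, the flag fell on 25.0% (279 of 1115) and 22.5% (301 of 1340) of gene spots with a mean log2 signal of 14 or more, whereas on the Axin2 arrays it fell on 0 of 387 and 0 of 421 such spots. Between 12 and 14 the share was 0.624% and 0.426% on the *Rspo3* KO arrays. This removed the only probes of *Guca2a* and *Plac8* and the brightest probe of *Ceacam1* on both *Rspo3* KO arrays, and 1 *Vil1* probe on the first, in all 4 of 12 marker probes. The other surface markers *Aqp8*, flagged on both arrays, and *Krt20*, flagged on the first only and at a log2 ratio of 0.86 in the second pair, were left out too, and 14 of the 20 other absorptive genes were measured. With the flagged spots kept, an alternative added once the values were known, 15601 genes were tested, of which 1.89% were higher and 2.46% lower by the fold rule.

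**Figure D4:**
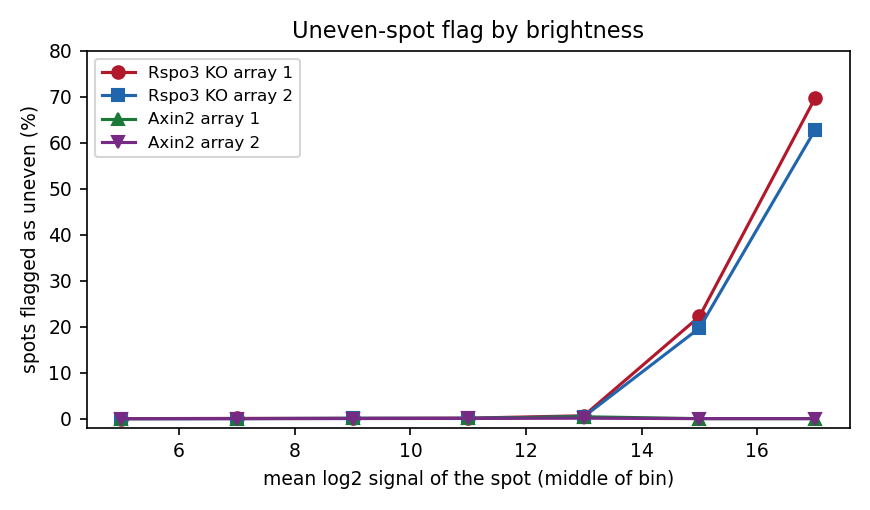
Percent of gene spots flagged as uneven (vertical axis) by the mean log2 signal of the spot (horizontal axis, middle of bins of 2 log2 units), with a line for each array. The share rises above 60% in the brightest bin on both *Rspo3* KO arrays and is 0 there on both Axin2 arrays.

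With these spots kept, all 9 markers were measured, 2 were higher and 1 was lower by the fold rule, and again none passed limma's test. By limma 3 of the 9 had an unadjusted p under 0.05, *Guca2b* (0.0214), *Ceacam1* (0.0234) and *Guca2a* (0.0364). Over all 15601 genes of this setting, 295 were higher and 401 lower at an unadjusted limma p under 0.05. *Guca2a* had levels of 15.67 in the KO and 15.37 in the control mouse of the first pair and 15.77 and 14.68 in the second, with log2 ratios of 0.30 and 1.09 (mean 0.70 ± 0.56, SD, n = 2; limma adjusted p = 0.9999). The second pair held most of this difference. The bright *Ceacam1* probe A_52_P240706 had levels of 15.80 and 14.89 in the first pair and 15.43 and 14.95 in the second, with log2 ratios of 0.90 and 0.47 (mean 0.69 ± 0.30, SD, n = 2; limma adjusted p = 0.885). Together with 1.14 and 0.06 at A_51_P183446 and 1.07 and 0.14 at A_52_P159232, all 3 *Ceacam1* probes were higher in both pairs. *Plac8* had levels of 16.20 and 15.33 in the first pair and 15.75 and 15.58 in the second, with log2 ratios of 0.87 and 0.18 (mean 0.53), short of 1.5-fold.

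The guanylin genes therefore had opposite signs in *Rspo3* KO colon, where *Guca2a* was measured on flagged spots only. The log2 ratio of *Guca2a* exceeded that of *Guca2b* by 1.27 in the first pair and by 1.56 in the second. In the Axin2 comparison the order was the reverse, with *Guca2a* the lower of the pair on both arrays. These differences were noticed in the data and carry no test.

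The other absorptive genes gave no call in *Rspo3* KO colon. Of 14 measured, none passed limma's adjusted p, 6 went opposite ways in the 2 pairs, and the median was 0.25. The brightest, *Car4* (1.01 and -0.30), *Car2* (0.46 and -0.09), *Lypd8* (0.37 and 0.11) and *Cyp2c55* (0.36 and -0.93), included 3 with opposite signs. The sodium-proton exchanger *Slc9a3*, which guanylin signals inhibit, was the only one of these genes past 1.5-fold, with log2 ratios of 1.35 and 1.83 and a limma adjusted p of 0.066 by Benjamini-Hochberg. Its second probe was not above background in any channel of this experiment. Under other processing the adjusted p of *Slc9a3* lay between 0.00252 and 0.99998. In the Axin2 comparison *Slc9a3* was lower in Axin2+ cells, at -2.37 and -2.38.

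Of the brush border genes, 0 of 14 were called, 9 had opposite signs in the pairs, and the median was 0.07. In the CEACAM list 0 of 9 were called and none passed 1.5-fold, with *Ceacam2* at 0.49 and 0.35. In the list of tetraspan families and caveolins 0 of 9 were called. The 2 genes higher by the fold rule were the caveolins *Cav1* and *Cav2*, hairpin proteins of the plasma membrane, and no tetraspan gene of the list passed it. The caveolins were at 0.73 and 0.61 and at 1.11 and 0.39, the latter named after its values were seen. Of the guanylin pathway genes 0 of 8 were called, with *Gucy2c* at 0.27 and 0.32 and *Cftr* at 0.31 and 0.08. Among the transcription factors 1 of 14 was called: *Cdx2*, a homeobox factor that maintains intestinal identity, rose with log2 ratios of 2.33 and 1.91 (limma adjusted p = 0.0187 by Benjamini-Hochberg, between 0.000162 and 0.665 under other processing). *Cdx2* has 1 probe on the array, and its log2 ratios in the Axin2 comparison were 0.31 and 0.52. *Elf3*, an epithelial transcription factor, was lower by the fold rule, at -0.61 and -0.60 (limma adjusted p = 0.906), and *Klf5* (0.34 and -0.18), a factor of dividing crypt cells, did not pass.

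The composition of the colon samples was followed with the same marker lists. Pan-epithelial genes had summed intensities between 201584 and 202730 in *Rspo3* KO and between 192873 and 222123 in control mice, over the 5 of 8 genes measured without flags. Fibroblast genes summed to between 86186 and 94499 in KO and between 72628 and 75684 in control mice, with 8 of 8 measured and none called, and smooth muscle genes to between 78868 and 81322 and between 68423 and 77156, with 6 of 8 measured and none called. The stem cell list had a median of -0.61, with 6 of 11 genes lower by the fold rule and none called. The part of tissue composition in the marker values was not tested.

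The levels of each marker in the 4 conditions are given on a scale that sets all arrays to the same distribution of mean log2 intensity, and whole tissue, sorted cells and slides cannot be told apart in it. *Emp1* was highest in Axin2- cells (11.85 ± 0.07, SD of 2 arrays), followed by control (11.11 ± 0.07) and *Rspo3* KO colon (11.08 ± 0.14), which overlapped, and lowest in Axin2+ cells (9.20 ± 0.17). *Tmigd1* was higher in Axin2- cells (11.07 ± 0.20) and Axin2+ cells (8.05 ± 0.33) than in *Rspo3* KO (7.27 ± 0.45) and control colon (6.76 ± 0.10). *Guca2b* followed the same order of experiments, with 12.13 ± 0.03 in Axin2- cells, 11.67 ± 0.06 in Axin2+ cells, 10.23 ± 0.08 in control and 9.52 ± 0.28 in *Rspo3* KO colon.

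*Ceacam20* was instead higher in tissue than in both sorted fractions, at 11.35 ± 0.13 in *Rspo3* KO and 11.17 ± 0.60 in control colon, which overlapped, and at 10.37 ± 0.05 and 8.08 ± 0.23 in Axin2- and Axin2+ cells. *Vil1* ran the same way, at 15.53 ± 0.38 and 15.34 ± 0.07 in *Rspo3* KO and control colon, which overlapped, and at 14.55 ± 0.06 and 14.38 ± 0.08 in the sorted cells. For *Mall*, control, *Rspo3* KO and Axin2- values overlapped with their neighbours between 12.82 ± 0.22 and 12.74 ± 0.01, and Axin2+ cells were lower at 11.06 ± 0.01. *Guca2a* was highest in Axin2- cells (16.85 ± 0.15), and its lowest conditions, control colon (15.02 ± 0.49) and Axin2+ cells (14.92 ± 0.23), overlapped.

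**Figure D5:**
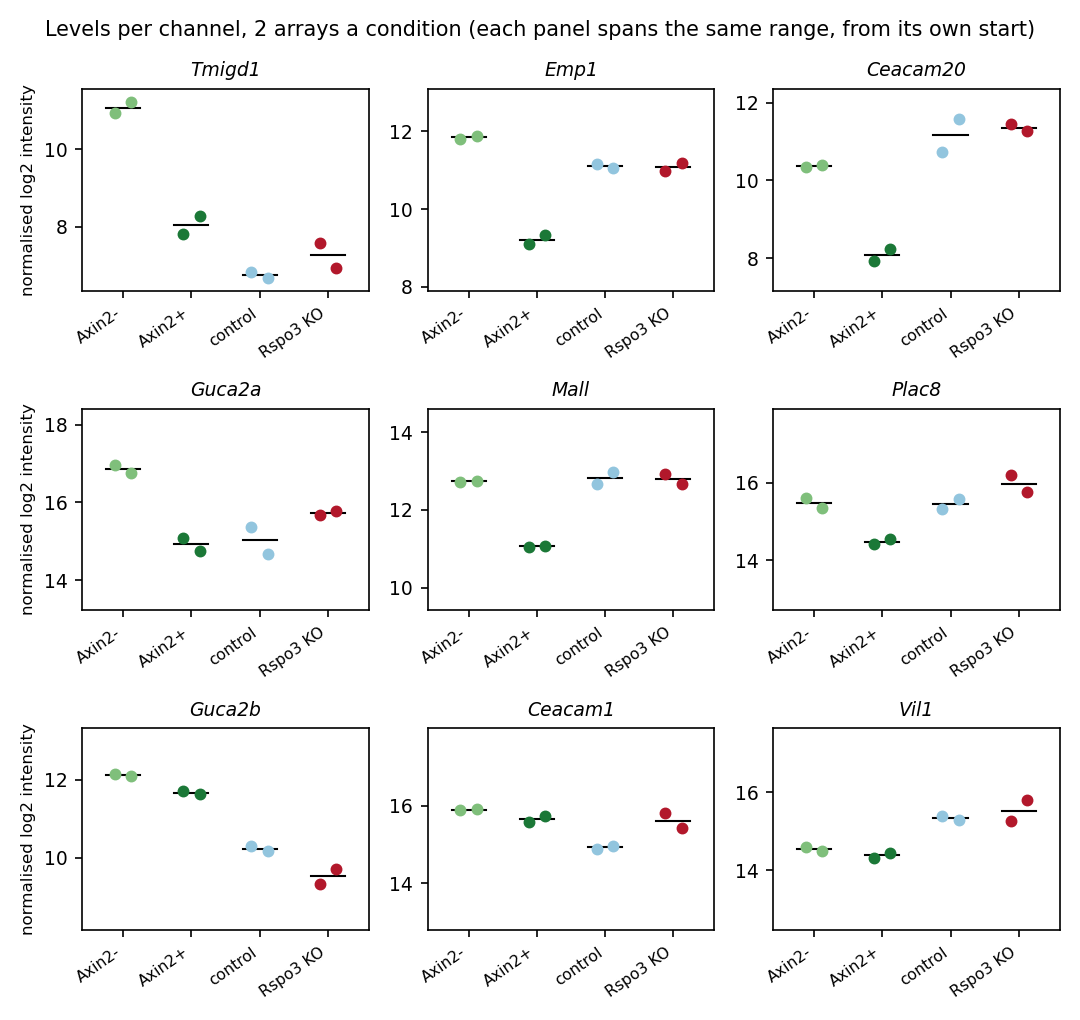
Normalised log2 intensity (vertical axis) of the brightest probe of each surface gene in the 4 conditions, with a point per array and a bar at the mean. Panels span the same range but start at different levels, and the flagged spots of *Guca2a*, *Plac8*, *Ceacam1* and *Vil1* on the *Rspo3* KO arrays are included; Axin2+ cells lie below Axin2- cells in all 9 panels.

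The genes nearest to the markers were sought by the Euclidean distance to the markers' median over the 4 log2 ratios, among 13634 genes measured in both experiments, 7 of them markers. The nearest were *Cyp2d9*, a cytochrome P450 (distance 0.161), *Slc3a1*, an amino acid transporter subunit (0.169), *Neu1*, a lysosomal sialidase (0.174), the array's unnamed transcript NAP026408-1 (0.177) and *St3gal4*, a sialyltransferase (0.200). Because they were picked by these ratios, they lie near the markers' median by construction. Their log2 ratios were between -1.51 and -1.82 on both Axin2 arrays and between -0.0016 and 0.37 in the *Rspo3* KO pairs.

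The promoters of the markers were searched for short motifs of factors known in the intestine, on both strands, from 250 bases before to 50 bases after each start in RefSeq (GRCm38.p6). All 9 markers had an entry, with 12 windows in all. TTTATG, a core of Cdx sites, was in 2 of 12 windows and in 11.9% of 32851 promoters. CACACCC, bound by Klf factors, was in 3 and in 7.95% of all, TTCAAAG, a core of Tcf sites, in 3 and in 5.14%, and AAAGTCCA, a core of Hnf4 sites, in 0 and in 1.25%. None of these motifs overlapped another in the windows. The windows below, of *Tmigd1*, *Emp1* and *Mall*, are shown because each holds both a Tcf-type match and a second one. *Ceacam20* and *Guca2a*, whose Axin2 ratios were lower than that of *Mall*, had no match. Capitals mark the matches.
Tmigd1, chr11:76901909-76902208 (+): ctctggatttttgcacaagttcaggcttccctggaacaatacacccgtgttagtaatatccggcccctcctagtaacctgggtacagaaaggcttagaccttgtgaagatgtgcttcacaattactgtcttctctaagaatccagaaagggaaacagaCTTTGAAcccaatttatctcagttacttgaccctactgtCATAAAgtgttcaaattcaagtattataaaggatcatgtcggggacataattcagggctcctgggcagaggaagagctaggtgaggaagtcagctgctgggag
Emp1, chr6:135362681-135362980 (+): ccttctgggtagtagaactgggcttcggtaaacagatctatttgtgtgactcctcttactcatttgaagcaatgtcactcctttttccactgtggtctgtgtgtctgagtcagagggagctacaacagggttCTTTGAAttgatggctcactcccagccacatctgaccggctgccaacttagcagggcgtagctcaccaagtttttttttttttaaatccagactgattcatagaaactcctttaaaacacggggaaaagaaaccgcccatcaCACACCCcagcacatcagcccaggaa
Mall, chr2:127729848-127730147 (-): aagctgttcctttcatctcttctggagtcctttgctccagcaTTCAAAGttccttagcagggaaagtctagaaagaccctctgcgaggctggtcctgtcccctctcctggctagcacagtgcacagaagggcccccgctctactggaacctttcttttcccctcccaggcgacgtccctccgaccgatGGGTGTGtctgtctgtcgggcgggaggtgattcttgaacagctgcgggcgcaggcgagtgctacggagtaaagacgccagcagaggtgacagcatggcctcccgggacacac
In the *Tmigd1* window the capitals are a Tcf-type match on the minus strand, 92 bases before the start, and a Cdx-type match 53 bases before it. In *Emp1* the Tcf-type match begins 118 bases before the start and a Klf-type match 24 bases after it, and in *Mall* they begin 208 and 62 bases before it. These are matches of letters and were not tested as binding sites. The remaining matches were a Cdx-type one in a second *Emp1* window and a Klf-type one in 1 of 2 *Plac8* windows, while *Ceacam1*, *Ceacam20*, *Guca2a*, *Guca2b* and *Vil1* had none.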

How the data were processed

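Expression was measured on 4 dual-colour Agilent 4x44K whole mouse genome arrays. The authors extracted RNA, labelled it, scanned the slides and ran Agilent Feature Extraction (version 11.5.1.1), and deposited linear mean and background intensities per spot and dye, with a log10 ratio of Cy5 over Cy3. That log10 ratio stands again in the deposited series table. The labels name distal colon and Trizol, and the methods name colon and a column kit. The p-value of the software's error model was not used here.

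Background was corrected by normexp (offset 50) in limma (version 3.58.1), log2 ratios were loess-normalised within arrays, and levels then by Aquantile between arrays. Control spots and outlier spots were left out. Ratios were turned to *Rspo3* KO over control and Axin2+ over Axin2-. The brightest probe stood for a gene, which was used where each array of the experiment had 1 or both channels well above background. The *Rspo3* KO pairs were tested against 0 with lmFit and eBayes (1 residual and 6.85 prior degrees of freedom) and Benjamini-Hochberg adjustment over all genes. The number of arrays limits the precision, and the script was tested on simulated data. Each experiment has its own slide. Probe positions are mm9, as in the array files, and were not placed in exons.

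Named were the 9 markers with all probes, *Rspo3*, up to 4 of the brightest genes of each list, and the 5 genes nearest to the markers. Other list genes, with *Slc9a3*, *Krt20*, *Aqp8* and *Car4* as known markers, were named from the lists. The markers and 16 gene lists were chosen with earlier results of these data known. Alternatives were other background corrections, centring, filters, probe and naming rules, thresholds, the software's ratios, a fit over 4 arrays, and each array left out.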

Additional observations from a re-analysis of the deposited data

How the results depend on the processing

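All 9 surface genes kept a mean below 0 in the Axin2 comparison under every alternative run, with *Tmigd1* between -3.75 and -2.93, *Emp1* between -2.92 and -2.57 and *Vil1* between -0.53 and -0.06. By the fold rule 6 of 9 passed under all of them except past 2-fold, where 5 did. With median centring the means of *Ceacam1* (-0.70) and *Guca2b* (-0.65) were also past 1.5-fold. The count, which also asks for the same direction on both arrays, stayed at 6 there. The count over all genes was 1093 with median centring (502 higher, 591 lower), 5198 with the software's log ratios or the series' table, 673 past 2-fold (272 higher, 401 lower), and between 2382 and 2540 with 1 array left out, against 2350. With 1 array left out, only the remaining array had to pass 1.5-fold and no shared direction was asked for, which is a looser rule.

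In the *Rspo3* KO comparison, no marker passed limma's adjusted p under any alternative, and 1 of 7, *Guca2b*, had an unadjusted p under 0.05 in the reported analysis, against 3 of 9 with flagged spots kept. Limma called 40 genes (22 higher, 18 lower), 71 without background correction (32 higher, 39 lower), 131 with an offset of 16 (56 and 75), 1 with all spots in the background fit, 8 with median centring (6 and 2), 133 with the software's log ratios or the table (57 and 76), 0 without a filter on dim probes (unadjusted, 505 higher and 701 lower), 5 with the mean over probes and 63 in 1 fit over 4 arrays. The fold rule gave 666 genes, 362 with all spots in the background fit, 1473 with the software's log ratios or the table, 1379 with error weights, 183 past 2-fold and between 1551 and 2395 with 1 pair left out. With 1 pair left out, only the remaining pair had to pass 1.5-fold, for all genes and for the markers. Those counts follow a looser rule and are not like the others. Markers past the fold rule numbered 2, 0 with all spots in the background fit, 0 past 2-fold, and between 0 and 4 with 1 pair left out. They numbered 3 without background correction, with an offset of 16, with the software's log ratios or the table, and with error weights. The added marker was *Tmigd1* without background correction (0.60), with an offset of 16 (0.69) and with the software's log ratios (1.07). *Emp1* turned from -0.02 to 0.0057 with all spots in the background fit and to 0.031 with median centring, and *Mall* from -0.03 to 0.0091 with median centring. The causes were not tested. *Guca2b* stayed lower (-0.97 to -0.47) and *Tmigd1* higher (0.17 to 1.07) throughout. With flagged spots kept, an alternative added after the data were seen, *Guca2a* lay between 0.65 and 0.71 under 10 settings.

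No paired analysis was possible because, beyond the reported test, which is itself made on the log ratios within the pairs, no pair term is left to add, and the Axin2 arrays repeat the same RNA. With 2 pairs and 1 pooled Axin2 replicate, small changes were not detectable, and the bright markers rest on flagged spots in the *Rspo3* KO arrays.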
